A study of Homo sapiens with 35 samples.

Results

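The very strong distal peaks are the 1672 sites of open chromatin that passed a rule with 3 parts. The fold enrichment at the summit was above 100, the summit lay more than 1 kb from both ends of every RefSeq protein-coding gene, and the peak lay on chromosomes 1 to 22. A further 15 peaks over ribosomal RNA genes or mitochondrial pseudogenes were left out, the highest at 4635-fold. Peaks over ribosomal RNA pseudogenes were kept, and 3 members overlap one, the highest at RNA5-8SP10 on chromosome 21 (331-fold). The 1672 members were taken from 308732 peaks in all, and they made up 0.596% of the 280305 distal peaks on these chromosomes. By comparison, 23.0% of the peaks at coding gene ends passed the same fold (4783 peaks). The members were chosen by their fold enrichment and summit position in this same list, so neither is a finding.

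The peaks come from ATAC-seq, in which a transposase cuts and tags accessible DNA, of haematopoietic progenitor cells differentiated from the human embryonic stem cell line H1. The labels describe 35 libraries of the 44 that the series' design text counts. Of these, 12 came from doxycycline-treated doxee17 cultures and 11 from untreated doxee17 cultures (batch 1), and 12 from untreated H1 cultures (batch 2). Each arm was sampled on 6 days from day 10 to day 20, which gave 18 groups of 1 to 3 libraries over the 3 arms. Doxycycline switches on ectopic MYC, a growth-promoting transcription factor. The labels do not give the promoter or construct behind the MYC transgene, or whether doxee17 is a clone. The deposited list holds 1 pooled value for each peak and none for any library. Treated and untreated cells, days and lines were therefore not compared, and no value below has a replicate error. A high fold in the pool cannot be divided into many moderately open cells and few very open ones.

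Open chromatin away from gene ends is usually read as enhancers, silencers or insulators, where transcription factors displace nucleosomes. Many genes also start transcription from more than one promoter, and long non-coding RNAs (lncRNAs) and small RNA genes have promoters of their own. In blood, enhancers of RUNX1, TAL1 and related regulators are switched on as progenitors arise. A gene's outermost ends, which the rule used, do not mark such internal starts.

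The label "distal" refers to the outer ends of coding genes, and for part of the members a start lay close by. The summits of 621 members (37.1%, 95% exact binomial interval 34.8 to 39.5%) lay within 1 kb of an annotated transcript start, either an internal start of a coding gene or the start of a lncRNA. In the other 278633 distal peaks the share was 2.28% (2.23 to 2.34%), and in the 4669 distal peaks of 50 to 100-fold it was 14% (13 to 15.1%). These intervals, here and below, cover counting error only, and neighbouring peaks are not independent.

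The sequences of 6 such starts are shown. A member's summit fell inside each, as it did in 464 windows in all. These 6 were chosen by hand after their values were seen. Each is a RefSeq window on GRCh38.p14, from 250 bases before to 50 bases after the start, read along the gene. Capitals mark matches on either strand to CCAAT (the NF-Y box), GGGCGGGG (a box of SP and KLF factors), AGGNGGC (part of the CTCF motif) and GAGGAAG (an ETS form).
KAT6B window, chr10:74826350-74826649, + strand: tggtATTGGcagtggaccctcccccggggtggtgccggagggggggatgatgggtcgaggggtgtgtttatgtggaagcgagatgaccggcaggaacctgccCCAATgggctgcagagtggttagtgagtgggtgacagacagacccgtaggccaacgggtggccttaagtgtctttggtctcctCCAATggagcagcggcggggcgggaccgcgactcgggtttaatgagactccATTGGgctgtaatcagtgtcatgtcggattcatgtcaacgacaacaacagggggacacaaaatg
SIN3A window, chr15:75451641-75451940, - strand: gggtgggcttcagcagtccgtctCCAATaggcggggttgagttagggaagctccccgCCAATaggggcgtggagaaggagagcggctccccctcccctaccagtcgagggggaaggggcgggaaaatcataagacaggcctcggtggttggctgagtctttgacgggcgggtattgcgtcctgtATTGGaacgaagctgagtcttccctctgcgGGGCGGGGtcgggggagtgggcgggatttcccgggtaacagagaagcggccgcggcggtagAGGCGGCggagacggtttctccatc
RUNX1 window, chr21:34888650-34888949, - strand: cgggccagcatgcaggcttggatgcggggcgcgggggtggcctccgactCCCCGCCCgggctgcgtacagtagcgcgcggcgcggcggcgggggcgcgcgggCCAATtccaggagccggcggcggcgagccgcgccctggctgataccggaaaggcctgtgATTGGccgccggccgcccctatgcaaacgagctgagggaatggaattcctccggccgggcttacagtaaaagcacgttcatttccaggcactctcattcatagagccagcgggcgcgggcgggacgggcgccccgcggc
ZFPM1 window, chr16:88453030-88453329, + strand: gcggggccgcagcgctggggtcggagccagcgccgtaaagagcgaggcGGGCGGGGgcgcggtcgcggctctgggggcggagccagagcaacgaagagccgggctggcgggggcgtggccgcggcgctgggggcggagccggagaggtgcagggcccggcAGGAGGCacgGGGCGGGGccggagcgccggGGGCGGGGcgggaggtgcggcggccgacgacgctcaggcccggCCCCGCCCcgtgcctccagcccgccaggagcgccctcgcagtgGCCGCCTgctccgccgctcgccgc
PCNA window, chr20:5119909-5120208, - strand: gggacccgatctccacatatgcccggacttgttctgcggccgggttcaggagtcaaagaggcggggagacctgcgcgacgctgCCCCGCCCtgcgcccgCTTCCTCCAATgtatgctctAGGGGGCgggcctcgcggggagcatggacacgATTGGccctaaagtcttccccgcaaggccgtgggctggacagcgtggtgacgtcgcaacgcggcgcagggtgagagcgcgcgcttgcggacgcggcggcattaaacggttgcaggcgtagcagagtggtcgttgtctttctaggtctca
MIRLET7A1HG window, chr9:94166008-94166307, + strand: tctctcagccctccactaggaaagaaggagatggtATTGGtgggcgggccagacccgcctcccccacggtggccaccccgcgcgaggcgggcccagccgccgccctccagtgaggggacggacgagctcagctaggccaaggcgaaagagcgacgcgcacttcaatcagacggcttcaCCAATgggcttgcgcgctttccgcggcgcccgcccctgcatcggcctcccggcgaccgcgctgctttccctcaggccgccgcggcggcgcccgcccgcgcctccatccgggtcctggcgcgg

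KAT6B encodes a histone acetyltransferase, and its window held 4 CCAAT boxes. The member there (chr10:74824092-74827541) stood at 374-fold over 3450 bp, with its summit at -183 bases from the start (negative is upstream). SIN3A, the scaffold of a histone deacetylase complex, had 3 CCAAT boxes, 1 GGGCGGGG and 1 AGGNGGC under a member of 329-fold and 7036 bp. Its summit lay at -227 bases.

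RUNX1, a master regulator of blood stem cell formation, is transcribed from a distal and a proximal promoter, and the window shown is the proximal one, 101 kb from the nearest coding gene end. It held 2 CCAAT boxes and 1 GGGCGGGG under a member 11476 bp wide that only just passed the rule, at 101-fold. ZFPM1 (FOG1, the cofactor of GATA factors in red cell and platelet formation) had the most GC-rich of the 6 windows, at 83.0% GC, with 4 GGGCGGGG and 2 AGGNGGC matches. Its member reached 182-fold and 17767 bp. PCNA, the sliding clamp of DNA replication, had a narrow member of 1574 bp at 151-fold, over a window with 2 CCAAT boxes, 1 GGGCGGGG, 1 AGGNGGC and 1 GAGGAAG that overlaps a CCAAT. MIRLET7A1HG, the host transcript of let-7 microRNAs, had 2 CCAAT boxes under a member of 253-fold, 56.3 kb from any coding gene end.

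In all, 464 RefSeq windows of chromosomes 1 to 22 held a member's summit. Their median GC content was 66.8% with 27 CpG dinucleotides per window. The values were 66.3% and 28 in 3379 windows under peaks above 100-fold at coding gene ends, and 58.7% and 14 in all 33558 windows. The 2547 windows under other distal summits had 55.7% and 7. Starts under the members thus had the base composition of strong promoters at gene ends, and starts under other distal peaks did not.

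CCAAT stood in 48.1% of the members' windows, against 50.3% of the windows at strong gene ends and 34.4% of all windows. GGGCGGGG stood in 47.4%, against 46.3% and 22.8% in the same sets. The blood motif AGATAA, read by GATA factors, was present in 3.66% of the members' windows, 3.37% at strong gene ends and 10.4% of all windows. The box CACGTG, read by MYC and MAX dimers, was present in 10.3%, 11.1% and 7.15%. TGAGTCA, the site of AP-1 factors, was present in 4.09%, 1.98% and 4.93%, and CCGGAAG, an ETS site, in 19.8%, 25.8% and 10.2%. GC-rich windows hold GC-rich motifs more often, and a match describes letters and not binding.

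Members also covered microRNA genes, and for 45 of these a RefSeq mature sequence lay wholly under the member. MicroRNAs are short RNAs that silence messages through their seed, bases 2 to 8, shown in capitals. The RefSeq mature sequences of 8 are given, since each lies under a named member.
let-7i-5p: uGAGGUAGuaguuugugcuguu
miR-210-3p: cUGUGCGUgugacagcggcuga
miR-21-5p: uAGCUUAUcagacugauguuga
miR-23a-3p: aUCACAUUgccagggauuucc
miR-27a-3p: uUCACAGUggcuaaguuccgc
miR-24-3p: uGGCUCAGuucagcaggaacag
miR-3180-5p: cUUCCAGAcgcuccgccccacgucg
miR-3180-3p: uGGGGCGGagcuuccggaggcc
The last pair are the arms of 1 repeated gene, and no 2 of the 8 share a seed. The gene of let-7i (chr12:62603691-62603712, + strand, for the mature form) lay under a member of 128-fold and 2567 bp. miR-210, which low oxygen induces, lay under one of 159-fold and 2459 bp. The gene of miR-21 (chr17:59841273-59841294, + strand), an abundant microRNA hosted near VMP1, lay under a member of 135-fold and 4698 bp whose summit was inside VMP1. The cluster of miR-23a, miR-27a and miR-24-2, known in myeloid cells, lay under a single member of 138-fold and 15419 bp (chr19:13829607-13845025).

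Fold enrichment among the members ran from 100.03 to 1386, with a median of 134 and quartiles of 114 and 170. The authors' fold was taken as the summit pileup over a single genome-wide background, with 1 added to each. Of the backgrounds tried, 93.5 best linked fold and −log10 p in weak peaks under a Poisson model. How closely it did so was not recorded, and the list gives no pileup to compare. No member was among those weak peaks. If the same background holds for members, the 100-fold limit corresponds to a pileup of 9449 fragments. The Poisson 95% interval of that limit, 98.0 to 102-fold, covers counting error only. Just inside the limit, 316 members stood at 100 to 110-fold. Just outside it, 395 distal peaks stood at 90 to 100-fold. Their median widths were 2409.5 and 2304 bp, 28.2% and 25.8% lay at a transcript start, and 59.2% and 51.4% lay inside a coding gene.

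The members were wide. Their median width was 2543.5 bp (399 to 36748 bp), against 1859 bp for distal peaks of 50 to 100-fold, 467 bp for all other distal peaks and 2369 bp for gene-end peaks above 100-fold. The share wider than 5 kb was 15.5% of the members, 7.05% of distal peaks of 50 to 100-fold and 0.267% of all other distal peaks. Width and fold come from the same signal. The rule and the distances given here use the summit, so a wide member can still reach a gene end. In 1394 of the 1672 members, no base of the peak lay within 1 kb of a coding gene end.

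**Figure D1:**
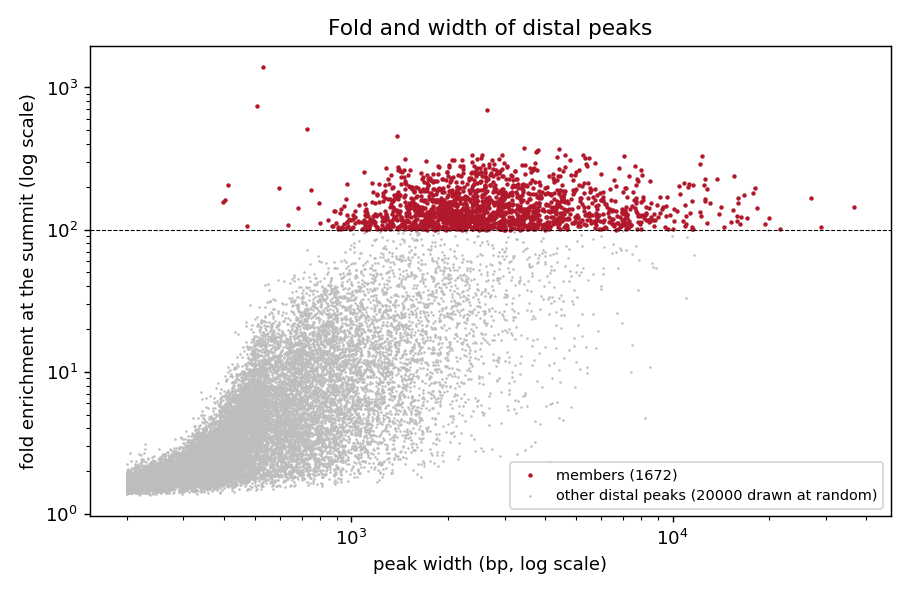
Fold enrichment at the summit against peak width, both on log scales, for the 1672 members (red) and for 20000 other distal peaks drawn at random (grey). The dashed line is the 100-fold limit of the rule. The members spread from 399 to 36748 bp, and the highest, at 1386-fold, is 529 bp wide.

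Of the 5 widest members, 3 had their summits inside coding genes. The widest, 36748 bp at 144-fold, had its summit inside LMNA, which encodes the nuclear lamins A and C (chr1:156113196-156149943). The next, 28905 bp at 105-fold, had its summit 3.19 kb outside TAL1, the helix-loop-helix regulator of early blood formation (chr1:47211259-47240163). That peak itself reached over the nearest end of TAL1. GRK2, a kinase that desensitises G protein-coupled receptors, held one of 26934 bp and 168-fold. One of 21663 bp and 101-fold lay in LINC02255, 19.6 kb from an end of SEMA7A, a semaphorin of leukocytes. The fifth, 19921 bp and 120-fold, lay in ABCC4, a transporter of cyclic nucleotides and drugs. Of these 5, those at TAL1 and LINC02255 were close to the fold limit.

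The highest member had no annotated gene near it. It stood at 1386-fold but was only 529 bp wide (chr13:109423969-109424497), 216 kb from the nearest coding gene end, that of MYO16. The second, 742-fold and 509 bp (chr17:22521203-22521711), lay 690 bp from the mitochondrial pseudogene MTCYBP13 without overlapping it, so the rule kept it. The fourth, 511-fold and 726 bp (chr3:93470209-93470934), had no other distal peak within 50 kb. Of the 4 members above 500-fold, 3 were under 1 kb wide, a width that 38 of the 1672 members (2.27%) had. Those 38 had a median of 118-fold, and 5 of them were above 200-fold, against 236 of all members. Whether sequence shared with other loci contributes to these narrow peaks was not tested, since how reads with several matches were handled is not given in the sources used here.

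Most of the other members among the 15 highest lay at annotated starts or small RNA genes. The third was over a U2 small nuclear RNA gene (692-fold) and the fifth at the start of lncRNA LOC105373480 (455-fold, 1388 bp). KAT6B followed at 374-fold. A member of 367-fold inside the non-coding gene LOC102724701 on chromosome 21 came next. MIR3180-1, MIR3180-2 and MIR3180-3, copies of the same gene, followed at 363, 360 and 351-fold. Their summits also lay 543, 260 and 259 bp from pseudogene ends. MIR10396A (338-fold), the U1 gene RNU1-1 (337-fold), a site between genes on chromosome 2 (chr2:64749809-64752751, 337-fold), an internal start of GNAI2 (335-fold) and an intragenic site of AHRR (333-fold) completed the 15 highest. GNAI2 encodes an inhibitory G protein subunit, and AHRR a repressor of the aryl hydrocarbon receptor. The member at MIR10396A (chr21:8986495-8988871) also covered MIR3648-2 and had no other distal peak within 50 kb. Whether it lies in ribosomal DNA outside the annotated ribosomal RNA genes was not tested.

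Sorted by what lay at the summit, 433 members (25.9%, 23.8 to 28.1%) were at a coding transcript start and 188 more (11.2%) at a lncRNA start. Small RNA genes had 82 (4.90%), pseudogene ends 84 (5.02%) and other lncRNA ends 60 (3.59%). The remaining 825 had no annotated end or start within 1 kb. Of these, 472 (28.2%) lay inside a coding gene, 72 (4.31%) inside a non-coding gene and 281 (16.8%) between genes. In all other distal peaks the last 3 classes held 51.4%, 10.9% and 31.1%, and coding starts 0.892%.

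**Figure D2:**
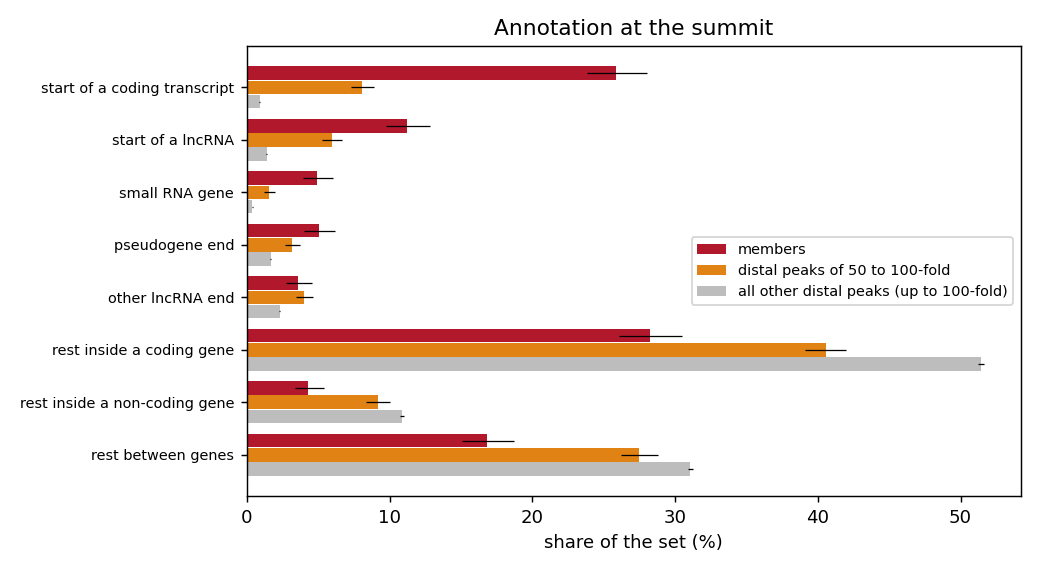
Share of each set by what is annotated at the summit, in percent, for the members (red), distal peaks of 50 to 100-fold (orange) and all other distal peaks (grey), with exact binomial 95% intervals. Coding transcript starts hold 25.9% of the members, 8.07% of distal peaks of 50 to 100-fold and 0.892% of all other distal peaks, and each class is counted once per peak in the order from top to bottom.

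The 433 members at coding starts belonged to 429 genes. Every one of these summits lay inside its own gene, which follows from the rule and is not a finding. Their summits were centred just before the start, at a median of -96 bases with quartiles of -156 and -24, and 79.2% were upstream. Gene-end peaks above 100-fold had a median of -95 bases with 80.5% upstream, and other distal peaks at coding starts -23 bases with 55.3% upstream. Their folds had a median of 143, against 126 for the 472 members inside coding genes with no start. Besides KAT6B, GNAI2 and SIN3A, the highest were at HNRNPL (318-fold), which encodes a splicing regulator, and ING1 (317-fold), a tumour suppressor that reads histone methylation. SLC25A28 (316-fold), a mitochondrial iron carrier used in haem formation, came next. The member nearest to the rule's limit was at PIGV, an enzyme of membrane anchors, 1001 bp from its end (124-fold).

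The highest members at lncRNA starts after LOC105373480 were at LINC01003 (321-fold, near KMT2C) and at LOC124904724 (294-fold, inside PLAUR, the urokinase receptor). CHASERR, a lncRNA that lies before CHD2 and lowers its output, had 255-fold over 3614 bp, and a second member at MIR3175 inside CHD2 had 239-fold. The member farthest from any coding gene end, 1411 kb from UQCRFS1, was also a start, that of LINC02987 (123-fold).

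Members lay closer to the 5′ ends of genes than other distal peaks did, even beyond the 1 kb that the rule cleared. Strand was known for 15101 of the 19126 coding genes. Among the 641 members 1 to 10 kb from an end of such a gene, 62.7% were nearer to a 5′ than to a 3′ end, against 52.6% of distal peaks of 50 to 100-fold and 51.3% of all other distal peaks. The excess lay inside the gene. There, downstream of the 5′ end, were 40.7% of the members and 27.5% of the other distal peaks, while upstream of it were 22% and 23.8%. In the first kb open to the rule downstream of a 5′ end lay 94 members (5.62%) against 0.819% of other distal peaks.

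**Figure D3:**
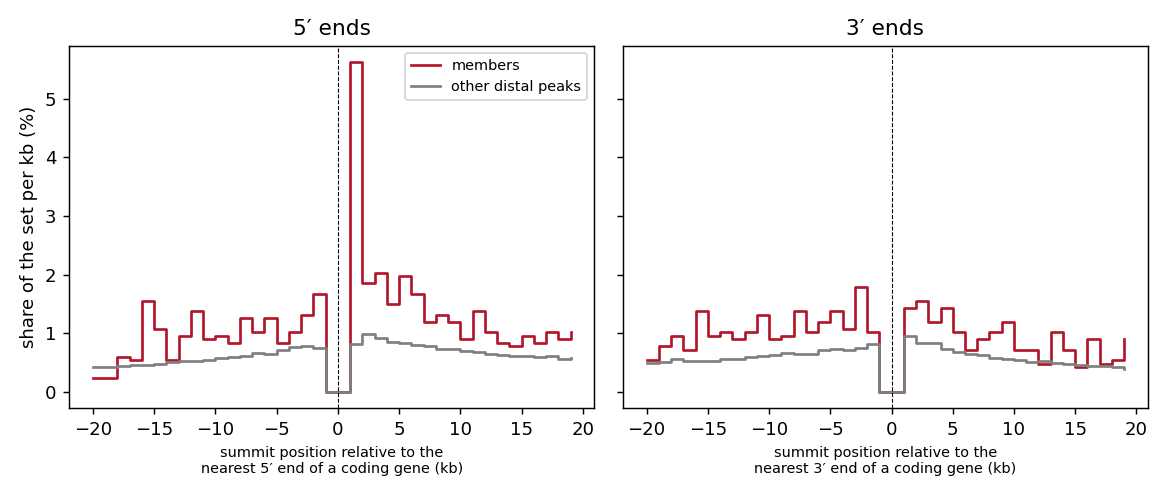
Summit position relative to the nearest 5′ end (left) and 3′ end (right) of a coding gene in kb, negative for upstream of that end, as the percent of each set per kb, for members (red) and other distal peaks (grey). The rule empties the kb on either side of each end. Members peak at 5.62% in the first kb after it downstream of 5′ ends, where other distal peaks have 0.819%.

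Overall gene overlap differed much less. The summits of 979 members (58.6%, 56.1 to 60.9%) lay inside coding genes, as did 52.5% of distal peaks of 50 to 100-fold and 54.3% of all other distal peaks. By contrast, 30.02% of members lay within 1 kb of a non-coding gene end, against 15.8% and 5.79% in the same distal sets. Gene-end peaks above 100-fold, of like strength, had 24.4%. Only 15.6% of members had no coding gene end within 50 kb, against 22.3% and 35.7% in those distal sets.

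Genes of small nuclear RNAs and transfer RNAs were covered by members more often than those of microRNAs. Counting each member within 1 kb of a small RNA gene, including 22 that also lay at a transcript start, there were 104. They included 33 members at small nuclear RNA (snRNA) genes, which serve the spliceosome, with a median of 182-fold, and 30 at transfer RNA (tRNA) genes with a median of 132-fold. A further 27 were at microRNA genes (median 159-fold) and 9 at small nucleolar RNA (snoRNA) genes (median 173-fold). RN7SL1 and RN7SL2, the RNA of the signal recognition particle, both had a member, and the vault RNA gene VTRNA1-1 had one of 101-fold. Counted by gene, members covered 34 of 151 snRNA genes (22.5%) and 59 of 439 tRNA genes (13.4%), but 46 of 1793 microRNA genes (2.57%, counting any overlap of the gene) and 20 of 1150 snoRNA genes (1.74%). By any peak of the list, 59.6% of snRNA, 85.6% of tRNA, 31.5% of microRNA and 20% of snoRNA genes were covered, so coverage by peaks of any strength differed too.

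The largest cluster of members was the U2 snRNA array. Chaining members whose summits were at most 100 kb apart gave 239 clusters with 606 members (36.2%), of which 14 clusters had 5 or more. The U2 cluster (chr17:43232907-43390000) held 14 members, and 12 of them lay at RNU2-1 or another annotated snRNA gene. These 12 ran from 155 to 692-fold, and the 11 gaps between their neighbouring summits ran from 1.69 to 15 kb with a median of 5.87 kb, while the other 2 were 128 and 204-fold. The next cluster, with 8 members up to 337-fold, had 3 at small RNA genes, the U1 genes RNU1-1, RNU1-3 and RNU1-4 (chr1:16512527-16742236). Another, with 7 members of 101 to 141-fold, held glutamate, glycine and valine tRNA genes near FCGR2A, an antibody receptor (chr1:161304904-161473898). The next 6 clusters, of 6 members each, had none at small RNA genes. The ones with the highest folds lay at EML2, GIPR, FBXO46 and SYMPK (up to 279-fold) and from MKNK2 to OAZ1 with DOT1L, a histone methyltransferase (up to 240-fold), both on chromosome 19. Copies in an array share sequence, so the fold of one copy cannot be told apart from that of its neighbours.

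The surroundings of members were also open. A median of 20 other distal peaks lay within 50 kb of a member, against 22 for distal peaks of 50 to 100-fold and 16 for all other distal peaks. The strongest of these neighbours had a median of 53.3-fold, against 50.6 and 31.9-fold. A gene-end peak above 100-fold lay within 50 kb of 36.9% of members, 30.9% of distal peaks of 50 to 100-fold and 22.4% of all other distal peaks. Members inside coding genes with no start nearby had more neighbours (median 23.5, strongest 61.7-fold) than members at coding starts (median 17, strongest 38.1-fold). At KAT6B and SIN3A the strongest other distal peak within 50 kb reached only 11.1 and 8.0-fold.

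Members were unevenly spread over chromosomes. Chromosome 19, the most gene-dense, had 162, or 2.76 per Mb, against 0.582 per Mb over all 22 chromosomes. Per 1000 distal peaks it had 21.8, against 5.96 overall. Chromosome 18 had 15 members, the fewest on every scale: 0.187 per Mb and 2.53 per 1000 distal peaks. Set against strong gene-end peaks the range narrowed, to 40.8 members per 100 such peaks on chromosome 19, 44.5 on chromosome 7, 21.7 on chromosome 18 and 35.0 overall.

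**Figure D4:**
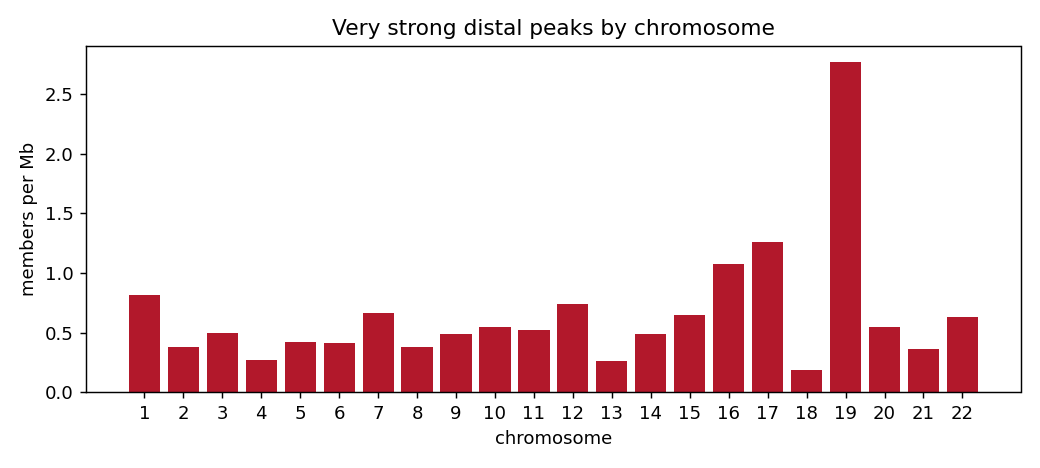
Members per Mb on each of chromosomes 1 to 22, in order. Chromosome 19 stands highest at 2.76 per Mb, followed by chromosomes 17 (1.26) and 16 (1.08), and chromosome 18 is lowest at 0.187.

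Set against gene lists, members lay near many blood regulators and also near many genes that most cells use. Of all 19126 coding genes, 5176 (27.1%) had a member within 100 kb of the gene and 936 (4.89%) had one inside. Of 22 progenitor transcription factor genes, 10 had one within 100 kb and 5 had one inside (RUNX1, FLI1, IKZF1, ETV6 and ZFPM1). The counts were 9 of 18 for progenitor surface proteins and cytokine receptors, 8 of 15 for AP-1 and immediate early genes and 7 of 13 for the MYC network. Housekeeping genes had 10 of 16. Erythroid genes had 7 of 18 and megakaryocyte genes 3 of 18. Lymphocyte (5 of 16), cell cycle (6 of 20), endothelial (4 of 14) and neutrophil and monocyte genes (5 of 20) lay near the share of all genes. Ribosome biogenesis genes had 4 of 19, genes altered in acute myeloid leukaemia 4 of 22 and mast cell genes 2 of 12. Hepatocyte, neuronal, mesenchymal, keratinocyte and pluripotency lists had 1 gene each, of 12, 10, 12, 11 and 11.

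**Figure D5:**
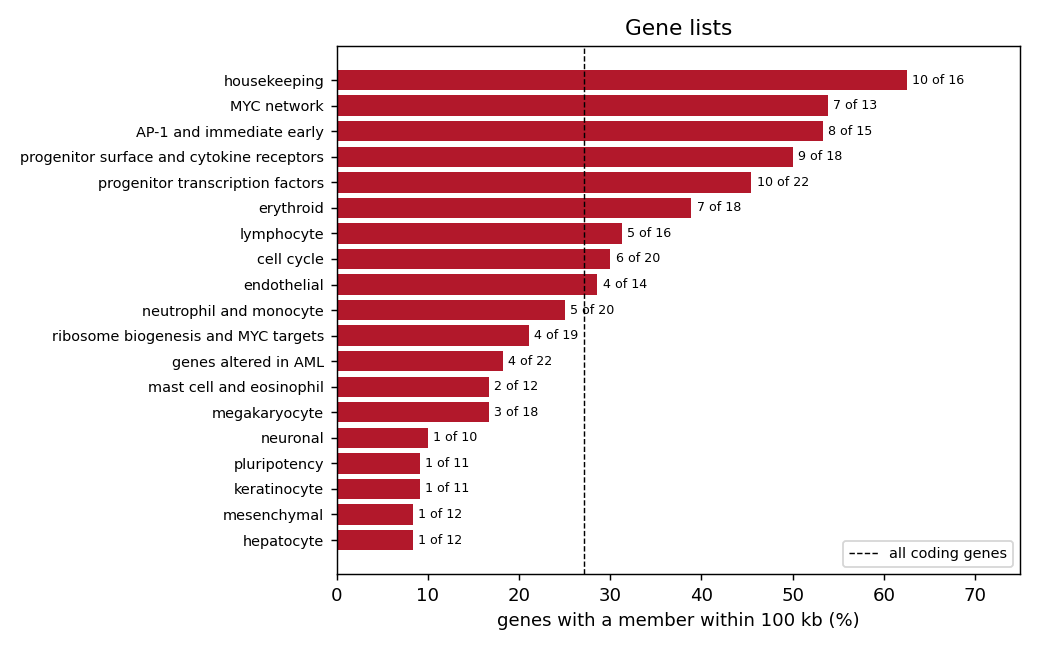
Percent of the genes of each list with a member within 100 kb of the gene, with counts beside the bars and the share of all coding genes (27.1%) as a dashed line. Housekeeping genes are highest at 62.5%, the MYC network and AP-1 lists follow at 53.8 and 53.3%, the lists of progenitor receptors and transcription factors stand at 50% and 45.5%, and lists of other tissues lie at 8.33 to 10%.

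Of the 13 members within 100 kb of a progenitor transcription factor gene, 9 stood at 120-fold or below, and all 13, from 3418 to 28905 bp, were wider than the median member. Their median was 114-fold and their highest 225-fold. Near LYL1, a relative of TAL1, were members of 149 and 125-fold, 49.0 and 60.2 kb away and both closer to IER2. Besides the members already named, RUNX1 held one of 113-fold and 4076 bp, inside the gene and 22.4 kb from its end. TAL1 had a further one at the start of LINC00853, 37.0 kb away (114-fold). Members stood inside IKZF1, the lymphoid and myeloid regulator Ikaros (115-fold, 7053 bp), and ETV6 (101-fold, 4683 bp). In FLI1, an ETS factor of blood and vessels, one lay at the start of the lncRNA SENCR (104-fold, 14502 bp). Outside GFI1B, a repressor needed for red cells and platelets, one lay 9.63 kb away (114-fold, 15892 bp). LMO2, the bridging partner of TAL1, had one 1.80 kb outside the gene (112-fold, 5739 bp). The member of 225-fold near SPI1 lay 29.8 kb away at a start of SLC39A13, a zinc transporter, so nearness alone does not tie a member to the listed gene.

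For receptors and mature lineages, EPOR, the erythropoietin receptor, held a member of 135-fold, as the only 1 of 18 erythroid genes with one inside. Of 18 megakaryocyte genes, 3 had a member within 100 kb and none had one inside. Among the 3, NFE2, a globin and platelet gene regulator, had one of 181-fold 3.44 kb away. Of 20 neutrophil and monocyte genes, 2 had a member inside. One of these was CSF1R, the receptor of macrophage growth factor, at 105-fold. PTPRC (CD45, the pan-leukocyte phosphatase) held one of 103-fold and had another 19.4 kb away at 102-fold. The members nearest to CD34, the progenitor marker, were 55.0 kb and 52.3 kb away (131 and 107-fold) and closer to CD46 than to CD34. For some of the lists the highest member lay at a neighbour's start, such as 247-fold at PLTP for MMP9 and 250-fold at SH2D3C for ENG.

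In the MYC network, MAX, the obligate partner of MYC, held members of 152 and 111-fold. The nearest coding gene end was that of FNTB for both, 7767 and 17901 bp away. The summit of the 111-fold member also lay inside FNTB and MIR4706, so neither member can be credited to MAX alone. The members inside MNT, MGA and MXI1, which compete with MYC for MAX, had 135, 118 and 116-fold, and that of MGA was at an internal start. Members near MLXIP (143-fold), MLXIPL (113-fold) and MXD3 (114 and 101-fold) lay outside these genes. Among AP-1 genes, JUNB had the highest, of 237-fold and 15585 bp, whose summit was 1.38 kb from JUNB and inside its neighbour HOOK2. That peak reached over the nearest end of JUNB. FOS had members 19.7 kb (194-fold) and 12 kb away (151-fold), and ATF3, IER2 and FOSB held members of 126, 149 and 123-fold. Of cell cycle genes, CCND3, the cyclin D of blood cells, held one of 154-fold and 13053 bp, and CDKN1A, which encodes the inhibitor p21, one of 119-fold.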

How the data were processed

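Per the labels' protocols, each library took 50000 cells through 45 minutes of transposition and was read in pairs of 75 nucleotides. The submitters' processing notes name Picard 2.2.4, Bowtie2 2.2.8, Trim Galore 0.6.5 and hg38 (GRCh38.p13), with no order. In the peak list itself, the names of peaks mention MACS 2.1.0 and GENCODE 36. Read filters, any transposase shift and which libraries were pooled are not given in the sources used here.

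The deposited list gives, per peak, a −log10 p-value and a fold enrichment, which is a linear ratio of summit to background, pooled by the authors. The authors' fold and summit were used. The background was estimated from the deposited fold and −log10 p of weak peaks, none of them a member. Pileups were computed from it. Depth per library is unknown. Comparisons of treated with untreated cells could not be run.

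Genes and strands came from RefSeq tables of GRCh38.p14 (59792 genes, 35116 start windows, of which 22199 coding). These tables are not complete, so counts at starts are a minimum. Chromosome lengths were taken as the end of the last peak. Tools were Python 3.11.15 with scipy 1.17.1, pandas 2.3.3, numpy 2.4.6 and matplotlib 3.10.9. The annotation steps were tested on simulated data. No test was run, since fold chose the members. The members and gene lists were chosen with earlier results of these data known. Named members are the 15 highest, the 5 widest, those nearest and farthest from coding ends, the largest clusters and the highest near listed genes, though not every one these rules give. Others, among them further members near blood, MYC network and AP-1 genes and the printed windows, were chosen after their values were seen. Alternatives changed the fold limit, the distances and the overlap.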

Additional observations from a re-analysis of the deposited data

How the results depend on the processing

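No paired analysis was possible because the peak list holds no value for any library, and leaving out a replicate could not be computed for the same reason. Of 51 alternatives, 21 stayed within the interval of the value or within 1.5 times the count. The number of members was 2607, 1091 and 608 at fold limits of 80, 120 and 150, and 912 at a distance of 10 kb. The share inside coding genes was 61.6% by any base of the peak, and 61.0% and 54.3% at distances of 0.5 and 5 kb. The share at non-coding gene ends was 25.7% and 36.1% within 0.5 and 2.5 kb, and 27.3% and 35.4% at fold limits of 80 and 150. The median width was 2426 and 2634 bp at those limits, 2458.5 bp at a distance of 5 kb and 2385.5 bp with no base of the peak within 1 kb of a coding end. The median number of neighbours was 8 within 20 kb, 39 within 100 kb and 19 at a fold limit of 150. Members with a listed gene within 100 kb made up 7.12%, against 5.32% within 50 kb, 12.3% within 200 kb and 3.23% for the nearest gene only. Members with another within 50 kb numbered 403.

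The following were chosen after seeing the data. Leaving out transcript starts left 1051 members. The share at a transcript start was 31.8%, 34.8% and 42.5% within 0.25, 0.5 and 2.5 kb, 32.0% and 42.6% at fold limits of 80 and 150, and 39.6% without members at small RNA genes, pseudogenes or chromosome ends. Chromosome 19 had 1.13 members per Mb at 150-fold.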

Other observations

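Several families of genes or pseudogenes, grouped by symbol, had members at several copies. Sequence identity between copies was not measured. How reads that match several copies were handled is not given, so the folds of copies cannot be told apart. Of 12 annotated FAM86 pseudogenes, 9 on 5 chromosomes had a member, all between 187 and 312-fold and between 2351 and 2614 bp wide. Both NCF1B and NCF1C, pseudogenes of a subunit of the neutrophil oxidase, had one, at 282 and 296-fold. Of 5 MIR3180 copies, 4 had a member of 229 to 363-fold. A further peak at a MIR3180 copy stood at 318-fold but lay within 1 kb of a coding gene end, so it was not a member. Of 21 annotated U1 snRNA genes, 13 had a member, all on chromosome 1 and from 106 to 337-fold. Of 12 SNORD3 genes, 4 had one, from 166 to 325-fold.

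At the chromosome ends, 9 members lay within 30 kb of the first base or of the last peak's end, at 101 to 190-fold and 637 to 2484 bp wide.

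Of 936 coding genes with a member inside, 58 had at least 2 and 7 had 3: DNAJB1, FAAP20, LTBP4, STK10, MIDEAS, ZMIZ1 and GSE1.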
